A study of Mus musculus with 6 samples.

Results

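Germinal centers are the sites in B cell follicles where B cells divide, mutate their antibody genes and are selected with the help of follicular helper T (Tfh) cells. Described here are 7 genes best known from germinal center B cells, *Mef2b*, *Mybl1*, *S1pr2*, *Rgs13*, *Gcsam*, *Neil1* and *Fas*, as they were measured in Tfh cells sorted from mouse spleen. They were chosen by name, as germinal center B cell genes of which some are shared with germinal center Tfh cells, and they are 7 of the 53379 genes listed for each mouse. The question was which of them were well counted in sorted Tfh cells, which were near 0, and whether any differed between Tfh cells of *Prdm1*-CKO mice and of control (CTL) mice.

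The RNA-seq data cover 3 CTL and 3 *Prdm1*-CKO female mice, which were immunized with NP-CGG in adjuvant at an age of 6 to 8 weeks and studied on day 7. *Prdm1*-CKO mice carried *Prdm1* fl/fl with CD11c-CRE, which removes the gene for BLIMP-1 from dendritic cells, and the labels call them Blimp1 KO in the titles and Blimp1 KD as genotype. CTL mice were either *Prdm1* fl/fl without CRE or *Prdm1* +/+ with CRE, and the labels do not say which mouse was which. Live TCRβ+ CD4+ CXCR5+ PD1+ cells were sorted, without a gate on FOXP3, and each mouse gave 1 Smart-seq2 library with raw counts of reads per gene. Because the CRE acts in CD11c+ cells, *Prdm1* in Tfh cells does not check the labels. Its level was 28.8, 29.9 and 27.5 CPM (counts scaled to library size with TMM factors) in the CTL mice, against 30.1, 30.7 and 30.8 CPM in the *Prdm1*-CKO mice.

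Total counts per mouse lay between 7147601 and 16973392. CTL replicate 2 stood apart from the other mice. Its mean correlation across genes with the other mice was 0.875, against 0.923 to 0.944 for the others, and 16650 genes had a count in it, against 18480 in the shallower CTL replicate 3. The 8 T cell markers summed to between 5570 and 6480 CPM in CTL and between 5360 and 5660 CPM in *Prdm1*-CKO mice, and 3 of them (*Cd4*, *Lat* and *Cd28*) were lower in every *Prdm1*-CKO mouse than in any CTL mouse, as were 3.86% of all genes tested. Of 8 CD8 T and NK cell markers, 3 (*Cd8a*, *Nkg7* and *Gzma*) were lower and 1 (*Cd8b1*) was higher without overlap. The 14 B cell markers summed to 220, 122 and 146 CPM in the CTL replicates, against 285, 187 and 275 CPM in the *Prdm1*-CKO replicates. Of the 14, 13 had a log2 fold change above 0, as did 51.1% of all genes tested, and 4 (*Cd79b*, *Pax5*, *Cr2* and *Ly6d*) were higher in every *Prdm1*-CKO mouse than in any CTL mouse, as were 4.56% of all genes tested. Regulatory T cell markers summed to between 697 and 771 CPM in CTL and between 606 and 682 CPM in *Prdm1*-CKO mice. Of these 5 markers, 4 had a log2 fold change below 0 and 1 above, and 0 were lower without overlap. Plasma cell markers summed to between 513 and 765 CPM in CTL and between 772 and 980 CPM in *Prdm1*-CKO mice. Of these, 8 of 8 had a log2 fold change above 0, though *Irf4* was at 0.00 and *Sdc1* at 0.03 after rounding. The 3 higher without overlap were *Derl3* (1.11), *Mzb1* (0.94) and *Prdm1* (0.09). Macrophage markers summed to between 539 and 1540 CPM in CTL and between 1130 and 1550 CPM in *Prdm1*-CKO mice, with 9 of 9 tested above 0 and 1 higher without overlap. Erythroid markers summed to between 6.38 and 17.6 CPM in CTL and between 11.7 and 46.8 CPM in *Prdm1*-CKO mice, with 4 of 4 tested above 0 and a median of 1.52. At an unadjusted p under 0.05, where edgeR called 0.928% of all genes tested higher and 1.42% lower, 3 erythroid markers (*Hba-a1*, *Hbb-bs* and *Hbb-bt*), the plasma cell marker *Jchain* and the macrophage marker *C1qc* were higher, the T cell markers *Cd4* and *Cd28* and the CD8 T and NK cell markers *Cd8a* and *Gzma* were lower, and none of the B cell markers was called. The part of these cell types in the values of the 7 genes was not tested. At most 3 counts was taken as the floor of a library, which equals between 0.169 and 0.443 CPM and covers counting error only. In bulk samples, fewer cells of a type and less RNA per cell cannot be told apart.

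As background, MEF2B is a transcription factor that switches on *Bcl6*, the master regulator of germinal center B cells and of Tfh cells, and MYBL1 (A-MYB) is a transcription factor of germinal center B cells and male germ cells. S1PR2 is a receptor for sphingosine 1-phosphate that couples to the G protein Gα13 and keeps B cells and Tfh cells in the germinal center. RGS13 shortens signals of chemokine receptors, and GCSAM is an adaptor protein of germinal center B cells that tunes B cell receptor signaling and motility. NEIL1 is a DNA glycosylase that opens base excision repair of oxidized bases. FAS is a death receptor that is high on germinal center B cells and on activated T cells.

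RefSeq promoter windows on GRCm38.p6, from 250 bases before to 50 bases after a start of transcription listed for a gene, were available for 6 of the 7 genes. *Mybl1* had no entry in the set of windows used here. Those of *Mef2b* and *Fas* are given because they hold an octamer and a BCL6-type motif, and those of *S1pr2* and *Rgs13* because they set a well counted gene beside a gene with almost no reads. Each is written 5′ to 3′ on the strand of the gene, with matches to the octamer (ATGCAAAT, bound by OCT factors with the coactivator POU2AF1), a BCL6-type motif (TTCCNNGAA) or a MYB-type motif (CAACNG) in capitals, searched on both strands.
Mef2b, chr8:70152511-70152810, plus strand: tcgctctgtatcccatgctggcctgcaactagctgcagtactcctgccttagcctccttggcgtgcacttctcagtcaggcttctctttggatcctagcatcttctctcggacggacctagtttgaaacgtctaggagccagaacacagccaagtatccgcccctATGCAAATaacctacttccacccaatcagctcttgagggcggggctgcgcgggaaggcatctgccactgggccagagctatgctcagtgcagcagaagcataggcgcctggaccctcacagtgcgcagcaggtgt
Fas, chr19:34290409-34290708, plus strand: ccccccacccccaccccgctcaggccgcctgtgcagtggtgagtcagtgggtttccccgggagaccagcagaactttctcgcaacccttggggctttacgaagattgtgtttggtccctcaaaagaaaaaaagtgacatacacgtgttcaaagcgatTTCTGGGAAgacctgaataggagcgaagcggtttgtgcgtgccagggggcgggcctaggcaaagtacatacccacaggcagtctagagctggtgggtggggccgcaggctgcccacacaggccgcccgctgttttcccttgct
S1pr2, chr9:20976744-20977043, minus strand: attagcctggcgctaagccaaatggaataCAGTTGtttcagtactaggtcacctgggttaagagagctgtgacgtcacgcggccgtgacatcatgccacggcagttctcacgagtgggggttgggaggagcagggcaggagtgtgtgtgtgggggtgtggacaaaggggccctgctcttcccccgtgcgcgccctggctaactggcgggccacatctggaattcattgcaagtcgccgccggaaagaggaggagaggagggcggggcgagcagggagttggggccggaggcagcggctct
Rgs13, chr1:144177323-144177622, minus strand: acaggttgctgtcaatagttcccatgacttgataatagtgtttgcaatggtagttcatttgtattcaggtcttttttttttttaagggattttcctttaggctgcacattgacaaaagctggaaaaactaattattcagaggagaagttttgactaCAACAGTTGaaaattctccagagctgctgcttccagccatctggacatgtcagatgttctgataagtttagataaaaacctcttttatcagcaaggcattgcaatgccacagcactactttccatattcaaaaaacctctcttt

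The octamer of *Mef2b* begins 85 bases before the start used for its window, and 1.74% of the 32851 promoter windows of that length hold an octamer on either strand. The window of *Mef2b*, from 70152511 to 70152810, lies inside the gene, which is annotated from 70139711. Its letters thus belong to an internal start, while the other windows span the annotated start of their gene. *Fas* holds a BCL6-type match that begins 93 bases before the start, as do 4.81% of all windows anywhere in their length. MYB-type matches stand in *S1pr2*, *Rgs13* and *Neil1*, and in 35% of all windows. In *Rgs13* a pair of them overlap, on opposite strands. Also searched, and not in capitals, were a MEF2-type motif (CTA and TAG with 4 bases between, in 3.69% of all windows), which none of the 6 holds, the GC box (GGGCGG, in 35.7%), which *Mef2b*, *S1pr2* and *Fas* hold, and the E box (CANNTG, in 72.3%), which all 6 hold and which overlaps the MYB-type matches written CAGTTG or CAACTG. CG dinucleotides numbered 18 in the window of *S1pr2*, 17 in *Neil1*, 14 in *Fas* and 11 in *Mef2b*, against 4 in *Gcsam* and 0 in *Rgs13*, and the median of all windows was 7. Of these 6 genes, the 4 with enough reads for a test had more CG dinucleotides in this window than the 2 without. These matches describe letters, not binding.

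A gene was called well counted with at least 10 reads in every mouse. *S1pr2*, *Fas* and *Neil1* met this, with between 342 and 966, between 318 and 950, and between 196 and 568 reads per mouse. *Mef2b* had between 12 and 30 reads in 5 mice and 0 in CTL replicate 2. *Mybl1*, *Rgs13* and *Gcsam* had at most 12, 6 and 4 reads in any mouse and 0 reads in 3, 4 and 4 of the 6 mice, and none of the 7 genes was at the floor in every mouse. Among low counts of 1 to 10 reads, between 56.4% and 59.2% of the genes in a library had an even number, so the mates of a pair may often have been counted as separate reads, and a count of 2 can then stand for 1 fragment.

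**Figure D1:**
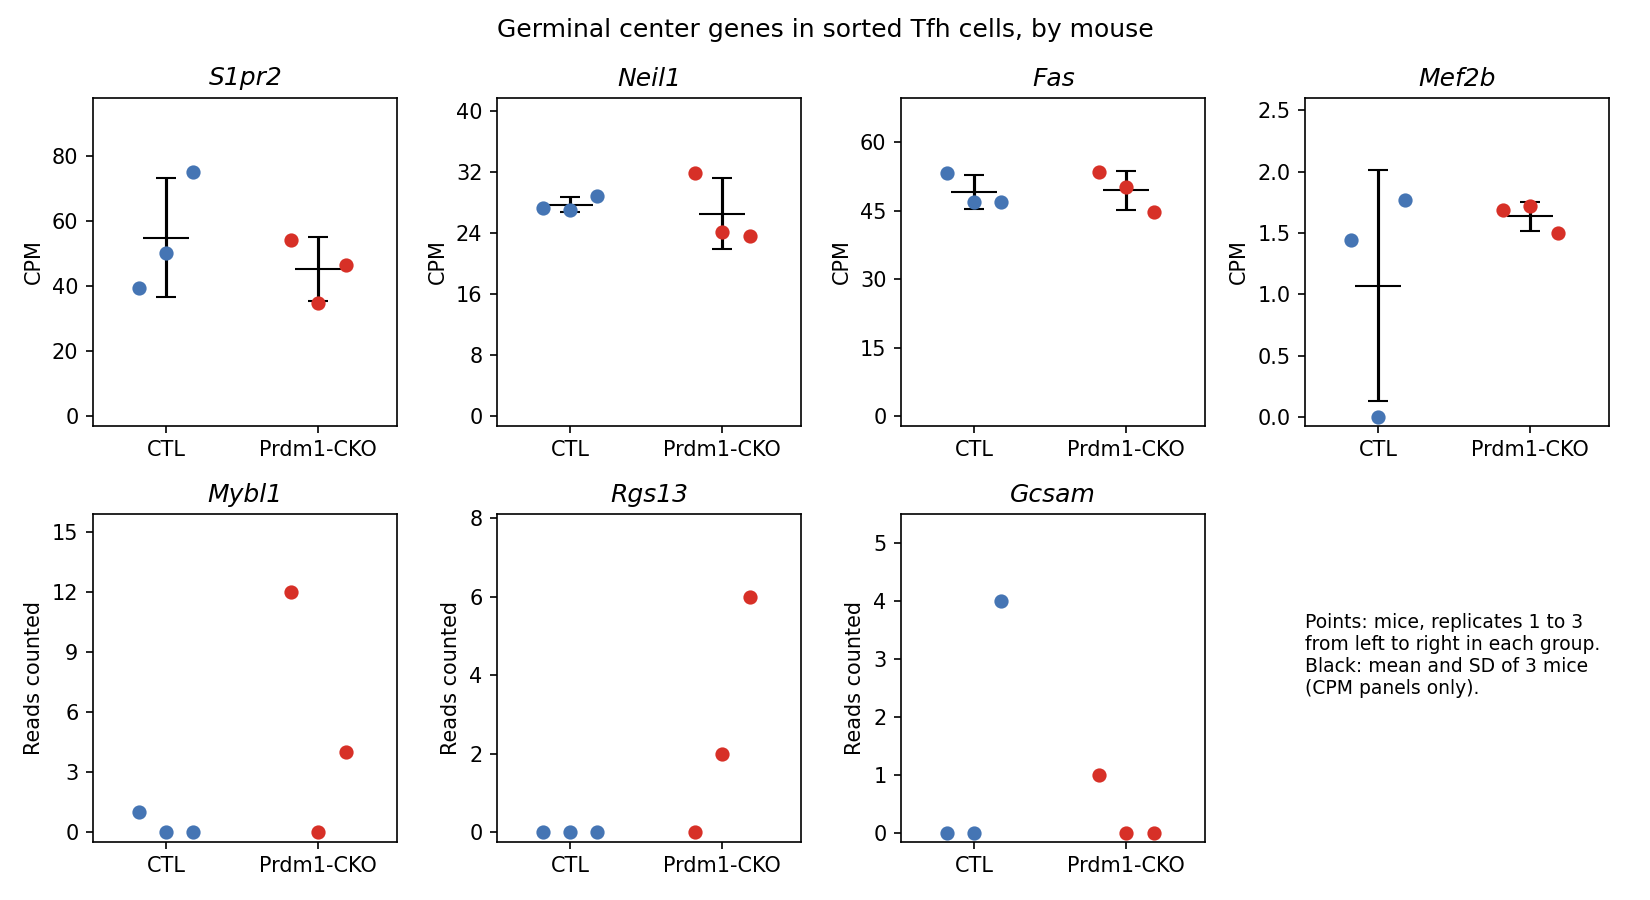
Level of each gene by mouse, in CPM for the 4 genes that passed the expression filter and in reads counted for the 3 that did not. Points are mice, and black marks are the mean and SD of 3 mice. *S1pr2*, *Neil1*, *Fas* and *Mef2b* overlap between the groups, and *Mef2b* is at 0 in CTL replicate 2.

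Of the 7 genes, 4 passed the expression filter of edgeR, and 0 of those 4 had an adjusted p under 0.05 between *Prdm1*-CKO and CTL mice in edgeR's quasi-likelihood test. This test called 0% of the 14555 genes tested as higher and 0% as lower. At an unadjusted p under 0.05 it called 0.928% of them higher and 1.42% lower, or 342 genes (2.35%) in all, and none of the 4 was among them. By DESeq2, 9 genes had an adjusted p under 0.05, none of them among the 4. It gave no adjusted p for *Mybl1*, *Rgs13* and *Gcsam*, which could therefore not be called. The groups did not overlap for 8.42% of the genes tested and for none of the 4. Replicates were separate mice, so p values measure the spread between mice.

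**Figure D2:**
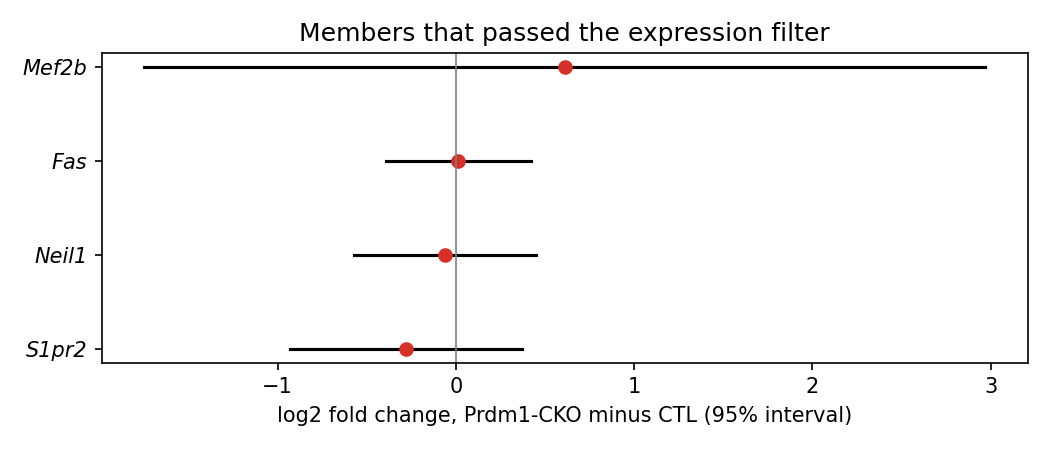
Log2 fold change of *Prdm1*-CKO minus CTL mice from edgeR, with its 95% interval, for the 4 genes tested. All 4 intervals include 0, and that of *Mef2b* is the widest, from -1.75 to 2.97.

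*Mef2b* was expressed at a low but repeatable level in 5 of the 6 mice. In CTL replicates 1, 2 and 3 its level was 1.44, 0 and 1.77 CPM, and in the *Prdm1*-CKO replicates it was 1.69, 1.72 and 1.5 CPM. Apart from the 0 of CTL replicate 2, all mice lay within a narrow range, and the groups overlapped. The log2 fold change was 0.61 (standard error 1.03, 95% interval -1.75 to 2.97, adjusted p = 0.996 from edgeR), and without CTL replicate 2 it was 0.03. On GRCm38 it occupies chromosome 8 from 70139711 to 70167488, plus strand, and 62 of its 1404 exonic bases, or 4.42%, are also exon of *Borcs8* on the same strand.

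The 0 of *Mef2b* in CTL replicate 2 went with zeros of other genes of the same level and with low B cell markers. Among the 1024 genes whose mean in the other 5 mice lay between 20% below and 25% above that of *Mef2b*, 297 (29%) had 0 reads in CTL replicate 2. The same share, taken around the mean of *Mef2b* without the mouse in question, was 13.2% in CTL replicate 3 and between 1.95% and 5.88% in the other mice. CTL replicate 2 also had the lowest B cell marker sum, with 10 of 14 markers counted and *Pax5*, *Ebf1*, *Fcer2a* and *Fcrla* at 0. Not every marker was low there, since *Vpreb3* was highest in that mouse (2.6 CPM, against 0 to 1.43 CPM in the others) and *Cd22*, at 61 CPM, was exceeded only by *Prdm1*-CKO replicate 1 (63.1 CPM). Mitochondrial genes took 5.83% of its counts, the highest share of the 6 mice, against 2.11% to 4.41% in the others. CTL replicate 3, with the next lowest B cell marker sum, had the highest *Mef2b*. The part of these in the value of *Mef2b* was not tested.

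**Figure D3:**
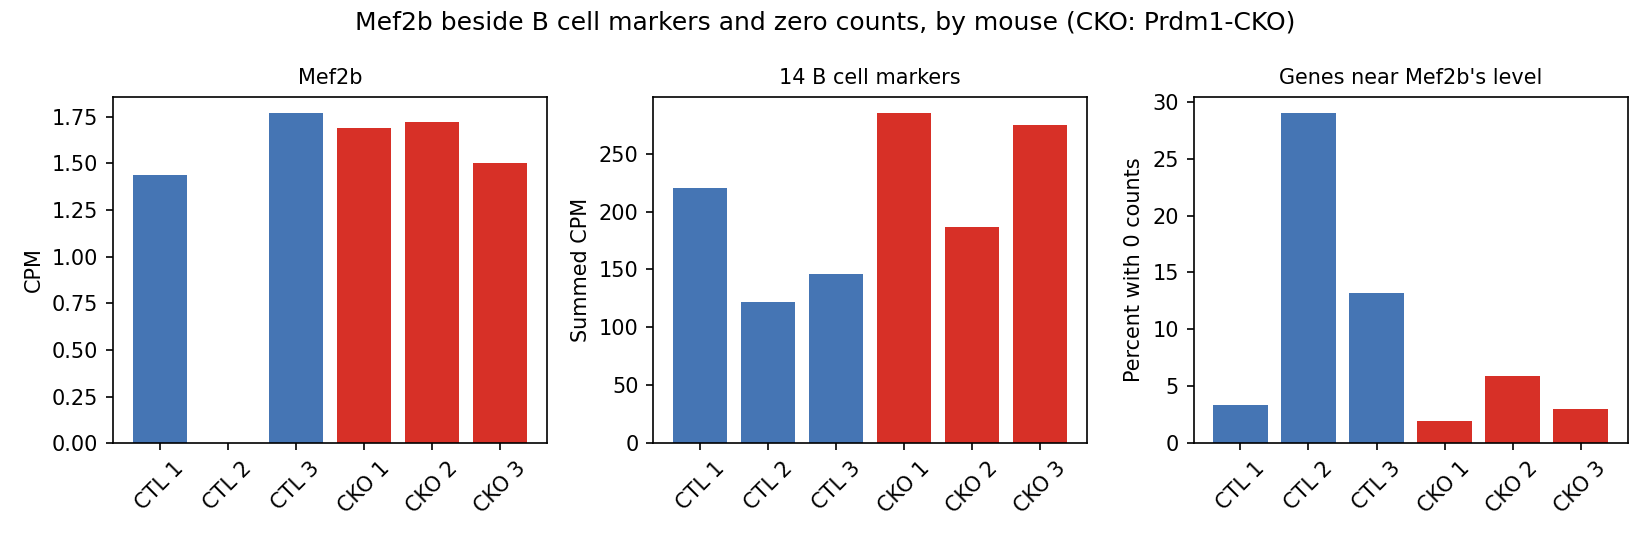
*Mef2b* in CPM, the summed CPM of 14 B cell markers, and the percent of genes near the level of *Mef2b* with 0 reads, each by mouse. CTL replicate 2 has no *Mef2b*, the lowest B cell marker sum (122 CPM) and the highest percent of zeros (29%).

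Among the MEF2 factors, *Mef2b* had the lowest mean level per exon length. Over the 6 mice its mean was 0.964 CPM per kb of exon (SD 0.481), against 2.06 (SD 0.78) for *Mef2c*, 4.14 (SD 0.734) for *Mef2a* and 7.39 (SD 1.79) for *Mef2d*. *Mef2b* was below *Mef2c* in every mouse, but their ranges over mice overlapped, as did those of *Mef2a* and *Mef2d*. In a list of 9 genes of MEF2 factors and partners, 9 were tested and none had an unadjusted p under 0.05, with 3 above and 6 below a log2 fold change of 0 and a median of -0.07, against 0.01 for all genes tested. *Bcl6* had the most counts per length of this list, at 94.3 CPM in CTL and 95.2 CPM in *Prdm1*-CKO mice on average, with a log2 fold change of 0.01 (adjusted p = 0.996 or more in edgeR, as for every gene of these lists). The widest fold changes of the list were 0.33 for *Mef2c*, a factor of B cells and muscle, and -0.45 for *Hdac9*, a histone deacetylase that binds MEF2 factors. The value of *Mef2c* was 0.02 without CTL replicate 2 and 0.93 without CTL replicate 1.

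*Mybl1* was near 0. It had 1, 0 and 0 reads in CTL and 12, 0 and 4 reads in *Prdm1*-CKO mice. Only *Prdm1*-CKO replicates 1 and 3 were above the floor of 3 reads, and the groups overlapped at 0. Thinned to an equal 7147601 reads per library, *Prdm1*-CKO replicate 1 kept 4 reads and the other 5 mice had 0. *Mybl1* did not pass the filter, and without a filter edgeR gave an adjusted p of 0.905 and a log2 fold change of 3.10 with a standard error of 1.97, a value that rests on 17 reads in all. The summed reads gave 0.0335 CPM (95% Poisson interval 0.000848 to 0.187) in CTL and 0.378 CPM (0.216 to 0.614) in *Prdm1*-CKO mice. These intervals do not overlap, but they cover counting error only, take each read as a separate event and leave out the spread between mice. If mates of a pair were counted as separate reads, the intervals are too narrow, and whether they would still be apart was not tested. Of the 16 *Prdm1*-CKO reads, 12 came from 1 mouse. The gene lies on chromosome 1 from 9667415 to 9700209 on the minus strand.

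The related factors were counted in every mouse. Per exon length, *Myb* was at 3.80 CPM per kb (SD 1.08, n = 6) and *Mybl2* at 1.92 (SD 0.504, n = 6), with no overlap between them, and *Mybl1* was at 0.0314 (SD 0.0498, n = 6). *Myb* (c-MYB), a factor of blood progenitors and lymphocytes, had the widest fold change downward of 5 listed MYB factors and partners, with a log2 fold change of -0.45. *Mybl2* (B-MYB), a factor of dividing cells, had the widest upward, at 0.22. *Lin37*, a subunit of the complex that binds B-MYB, had the most counts per length and a log2 fold change of -0.09. None of the 5 had an unadjusted p under 0.05, and their median was -0.09.

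*S1pr2* was well counted and varied most between mice among the well counted genes. In CTL replicates 1, 2 and 3 its level was 39.4, 50.1 and 75.1 CPM, and in the *Prdm1*-CKO replicates it was 54.3, 34.7 and 46.4 CPM. CTL replicate 3 was the highest and *Prdm1*-CKO replicate 2 the lowest, and the groups overlapped. The log2 fold change was -0.28 (standard error 0.28, 95% interval -0.93 to 0.37, adjusted p = 0.996 from edgeR), and it turned to 0.03 without CTL replicate 3. Its coefficient of variation was 33.4% in CTL and 21.9% in *Prdm1*-CKO mice, against 3.69% and 17.5% for *Neil1* and 7.51% and 8.77% for *Fas*.

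CTL replicate 3 was also the highest mouse for several Tfh markers. *Cxcr5*, the chemokine receptor used for the sort, was at 313, 254 and 476 CPM in CTL replicates 1, 2 and 3, and the *Prdm1*-CKO replicates had 324, 267 and 363 CPM. *Pdcd1*, which encodes PD-1, was at 262, 187 and 384 CPM and at 354, 262 and 252 CPM in the same order. Not every Tfh marker followed, since *Maf* was highest in CTL replicate 2 (132 CPM, against 99.6 CPM in CTL replicate 3). *Cd200* was highest in CTL replicate 1 (165 against 157 CPM) and *Il21* in *Prdm1*-CKO replicate 1 (41.7 against 24.8 CPM). The 10 Tfh markers summed to 1910 CPM in CTL replicate 3 and to between 1250 and 1520 CPM in the other mice. The part of this in the level of *S1pr2* was not tested. The gene lies on chromosome 9 from 20962361 to 20976781 on the minus strand.

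Within the sphingosine 1-phosphate receptors, *S1pr2* ranked 4 of 5 per exon length. *S1pr4*, a receptor of lymphocytes, was at 116 CPM per kb (SD 9.07, n = 6), *S1pr1*, the receptor for exit from lymphoid organs, at 84.5 (SD 7.72, n = 6), *S1pr5*, best known from NK cells, at 16.1 (SD 5.97, n = 6), *S1pr2* at 6.27 (SD 1.78, n = 6) and *S1pr3* at 0.318 (SD 0.478, n = 6). This order held in every mouse, and only the ranges of *S1pr5* and *S1pr2* over mice overlapped. *S1pr2* has 7971 exonic bases against 2386 for *S1pr4*, and the order depends on the division by length. In CPM alone *S1pr2* averaged 54.9 in CTL and 45.1 in *Prdm1*-CKO mice, and *S1pr5* 32.9 and 47.8. Of a list of 14 receptor and signal genes, 12 were tested, 9 lay above and 3 below a log2 fold change of 0, with a median of 0.16. None had an unadjusted p under 0.05 in the main edgeR fit. *S1pr3* had the widest fold change upward, at 2.05 from 22, 0 and 0 reads in CTL and 18, 4 and 82 reads in *Prdm1*-CKO mice, and *Sphk2*, a kinase that makes the ligand, the widest downward at -0.19. The value of *S1pr3* was 0.40 without *Prdm1*-CKO replicate 3 and 7.76 without CTL replicate 1, when no CTL read remains and the fitted value depends on the prior count. *S1pr4* had a log2 fold change of -0.15. *Gna13*, which encodes the Gα13 that S1PR2 couples to, was at 126 CPM in CTL and 117 CPM in *Prdm1*-CKO mice, and *Arhgef1*, the exchange factor between Gα13 and RHOA, at 351, 766 and 681 CPM in the CTL and 763, 739 and 849 CPM in the *Prdm1*-CKO mice. The groups of *Arhgef1* overlapped, and its log2 fold change was 0.39. It was 0.10 without CTL replicate 1, which was the lowest, and 0.74 in voom (unadjusted p = 0.00779). No alternative gave *Arhgef1* an adjusted p under 0.05.

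*Rgs13* was near 0. It had 0 reads in all 3 CTL mice and 0, 2 and 6 reads in *Prdm1*-CKO replicates 1 to 3. Only *Prdm1*-CKO replicate 3 was above the floor, and the groups overlapped at 0. Summed over the CTL mice, 0 reads have an upper 95% Poisson bound of 0.124 CPM. The 8 reads of *Prdm1*-CKO mice gave 0.189 CPM (95% Poisson interval 0.0817 to 0.373 CPM). Both limits cover counting error only and take each read as a separate event. Without a filter the adjusted p was 0.905 from edgeR. The gene lies on chromosome 1 from 144138654 to 144177372 on the minus strand, and 0 of the 1646 different stretches of 25 bases in its transcripts, the read length used, occurred in an annotated transcript of another gene.

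Other RGS genes were abundant in the same libraries. Of 12 RGS genes compared per exon length, *Rgs10* (75.3 CPM per kb), *Rgs19* (66.9) and *Rgs2* (62.2) had the highest means, with ranges over mice that overlapped, as did those of *Rgs2* and *Rgs14* (41.1), and *Rgs13* (0.0617) and *Rgs8* (0.0700) were lowest apart from *Rgs4* and *Rgs5*, which had 0 reads in all 6 mice. *Rgs1*, the RGS gene best known from activated lymphocytes, was at 19.7 CPM per kb (SD 3.13, n = 6). In a list of 16 RGS genes, G proteins and chemokine receptors, 13 were tested, none had an unadjusted p under 0.05, and 5 lay above and 8 below a log2 fold change of 0, with a median of -0.07. *Ccr7*, the receptor that draws T cells to the T zone, had the most counts per length, with a log2 fold change of -0.07. The widest fold changes were 0.35 for *Rgs16*, which was 0.10 without *Prdm1*-CKO replicate 1, and -0.34 for *Rgs3*. Every *Prdm1*-CKO mouse was below every CTL mouse for *Rgs3*, as for 3.86% of all genes tested.

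**Figure D4:**
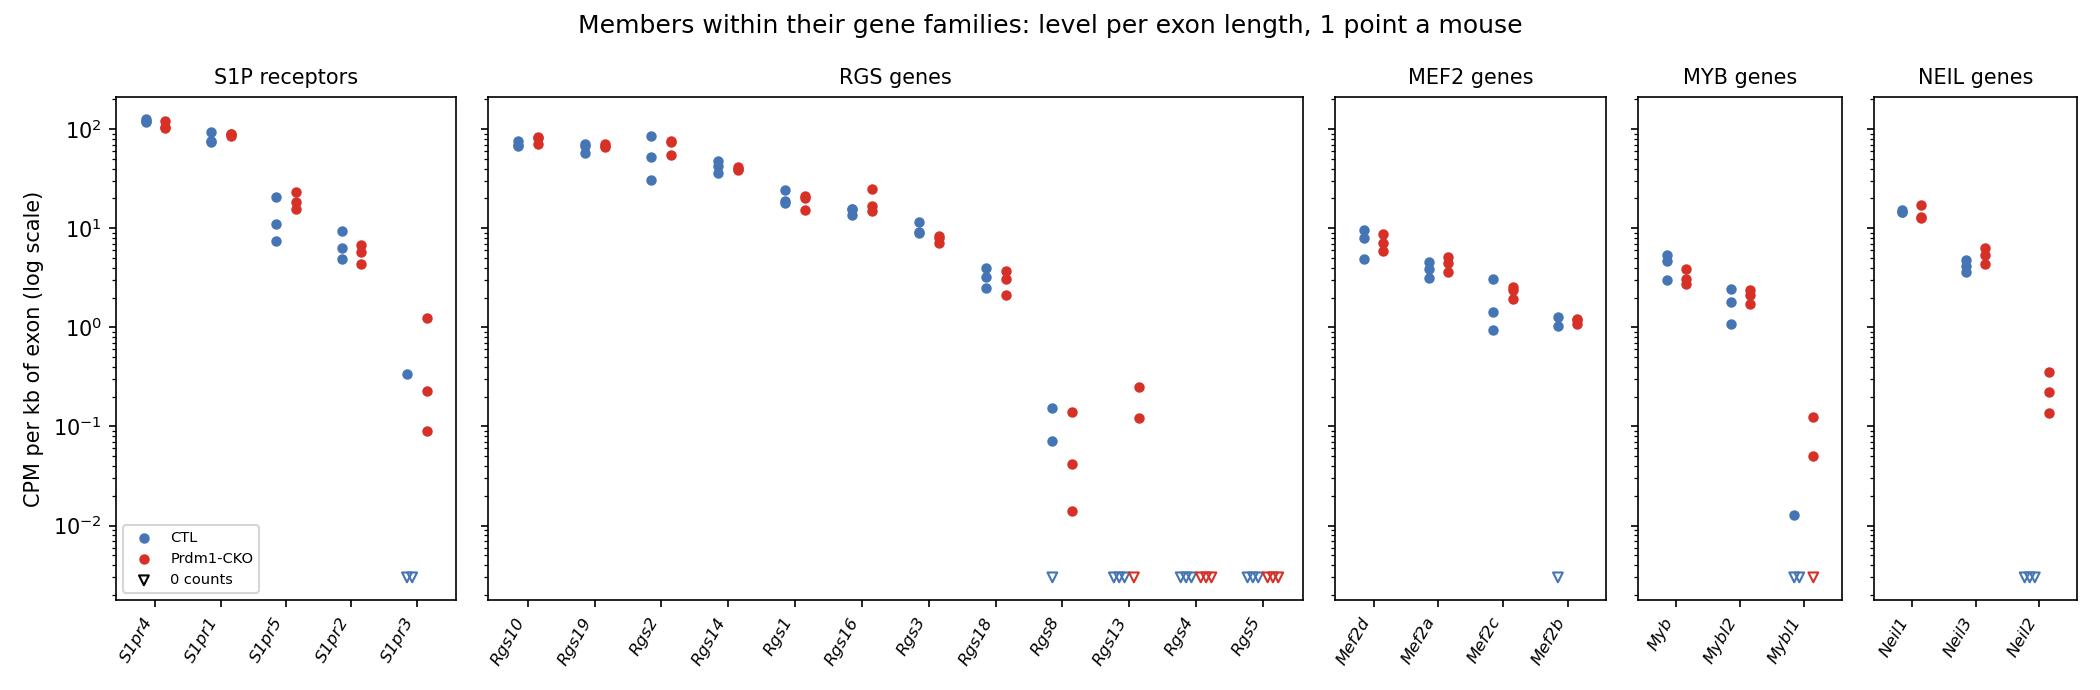
Level per exon length of the genes of 5 families, on a log scale, with 1 point per mouse and open triangles for 0 counts. *Neil1* leads its family, *Mef2b* and *Mybl1* have the lowest levels of theirs, and *S1pr2* ranks 4 of 5.

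*Gcsam* was the gene with the fewest reads. It had 0, 0 and 4 reads in CTL and 1, 0 and 0 reads in *Prdm1*-CKO mice, and only CTL replicate 3 was above the floor. The summed reads gave 0.134 CPM (95% Poisson interval 0.0365 to 0.343) in CTL and 0.0236 CPM (0.000599 to 0.132) in *Prdm1*-CKO mice. The intervals overlap, and no fold change can be read from 5 reads. *Gcsam* lies on chromosome 16 from 45610380 to 45622867 on the plus strand. Of a list of 7 partner genes, all were tested, none had an unadjusted p under 0.05, and 3 lay above and 4 below a log2 fold change of 0, with a median of -0.13. *Lyn*, a kinase of the B cell receptor pathway, had the most counts per length, at 143 CPM in CTL and 193 CPM in *Prdm1*-CKO mice (log2 fold change 0.43). *Syk*, the kinase that GCSAM binds, had the widest fold change upward, at 0.46, and *Lime1*, a membrane adaptor, the widest downward, at -0.50. The value of *Syk* was 0.26 without CTL replicate 2 and 0.90 without CTL replicate 1.

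*Neil1* was well counted and nearly constant within CTL mice, with a coefficient of variation of 3.69%, against 17.5% in *Prdm1*-CKO mice. In CTL replicates 1, 2 and 3 its level was 27.3, 27.1 and 28.9 CPM, and in the *Prdm1*-CKO replicates it was 31.9, 24.2 and 23.6 CPM. *Prdm1*-CKO mice held both the highest and the lowest value, so the groups overlapped. The log2 fold change was -0.06 (standard error 0.22, 95% interval -0.57 to 0.45, adjusted p = 0.996 from edgeR). The interval leaves out a change of 1 on the log2 scale in either direction. *Neil1* lies on chromosome 9 from 57142800 to 57148305 on the minus strand, and no exon of another gene overlaps it.

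*Neil1* was the most abundant NEIL gene per exon length in every mouse. It was at 14.5 CPM per kb (SD 1.64, n = 6), against 4.76 (SD 0.987, n = 6) for *Neil3*, a glycosylase of dividing cells, and 0.120 (SD 0.149, n = 6) for *Neil2*, with no overlap between neighbours. The order depends on the division by length, since in CPM alone *Neil3* was above *Neil1* in *Prdm1*-CKO replicates 2 (35.4 against 24.2) and 3 (29.8 against 23.6). *Neil2*, named here after its values were seen, had 0 reads in all 3 CTL mice and 32, 11 and 10 reads in *Prdm1*-CKO mice. Its mean level in *Prdm1*-CKO mice was 1.2 CPM (SD 0.562), which is 3.59 times the mean floor of the CTL mice, 0.334 CPM. This ratio is no lower bound, since it takes the *Prdm1*-CKO mean as exact. *Prdm1*-CKO replicate 3 was at 0.683 CPM, and the floor of CTL replicate 3 was 0.443 CPM. *Neil2* did not pass the expression filter, and its adjusted p was 0.893 from edgeR without a filter and 0.354 from DESeq2. Of the 26045 genes with a read in some mouse, 14 had 3 reads or fewer in all CTL mice together with 10 or more in all *Prdm1*-CKO mice, and 0 had the opposite pattern, while 2 of the 3 CTL libraries were the shallowest of the 6. For *Neil2*, 10.7% of the stretches of 25 bases also occur in other transcripts. Of a list of 14 base excision repair genes, 13 were tested, none had an unadjusted p under 0.05, and 5 lay above and 8 below a log2 fold change of 0, with a median of -0.04. *Parp1*, a sensor of DNA breaks, had the most counts per length (log2 fold change 0.37), *Neil3* tied with it as the widest upward (0.37), and *Xrcc1*, the scaffold of the pathway, was the widest downward (-0.17).

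*Fas* varied least over the 6 mice among the well counted genes. In CTL replicates 1, 2 and 3 its level was 53.3, 46.9 and 46.9 CPM, and in the *Prdm1*-CKO replicates it was 53.4, 50.2 and 44.8 CPM. No mouse stood apart, and the groups covered nearly the same range. The log2 fold change was 0.01 (standard error 0.18, 95% interval -0.39 to 0.42, adjusted p = 0.998 from edgeR). Per exon length *Fas* had the highest mean of the 7 genes, at 23.8 CPM per kb in CTL and 24.0 in *Prdm1*-CKO mice, followed by *Neil1* (14.8 and 14.2) and *S1pr2* (6.88 and 5.66). This order depends on the division by length. In CPM alone *S1pr2* averaged 54.9 in CTL and 45.1 in *Prdm1*-CKO mice, against 49.1 and 49.5 for *Fas* and 27.8 and 26.6 for *Neil1*. *Fas* lies on chromosome 19 from 34290666 to 34327772 on the plus strand in GENCODE M21, which holds a later version of the gene model than the files.

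The genes around *Fas* were counted in every mouse as well. *Fasl*, the ligand, was at 27.4 CPM in CTL and 26.8 CPM in *Prdm1*-CKO mice. Of 12 listed genes of the death pathway, 11 were found by symbol and tested, none had an unadjusted p under 0.05, and 6 lay above and 5 below a log2 fold change of 0, with a median of 0.07. *Casp8*, the caspase that starts the pathway, had the most counts per length (log2 fold change -0.10). *Fadd*, the adaptor between FAS and caspase 8, had the widest fold change upward at 0.46, and *Ripk1*, a kinase at the receptor, the widest downward at -0.39. *Bax*, which opens the outer membrane of mitochondria, had the same rounded log2 fold change as *Fadd*, 0.46. *Fadd* and *Bax* were higher in every *Prdm1*-CKO mouse than in any CTL mouse, or 2 of 11 genes, as were 4.56% of all genes tested.

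A list of 16 other germinal center B cell genes was measured alongside. Of these, *Nuggc* and *Basp1* had at most 3 and 8 reads in any mouse and were not tested. Of the 14 tested, 8 lay above and 6 below a log2 fold change of 0, with a median of 0.06, and 0 had an adjusted p under 0.05 in edgeR. In the main edgeR fit *Pou2af1*, the coactivator at octamer motifs, was the only gene of these role lists with an unadjusted p under 0.05. It averaged 55.7 CPM in CTL and 36.8 CPM in *Prdm1*-CKO mice, and its groups overlapped. Its log2 fold change was -0.59 (unadjusted p = 0.0467 and adjusted p = 0.996 from edgeR). At this threshold 2.35% of all genes tested were called, 1.42% as lower. Alternatives brought other role genes under it, among them *Arhgef1* in voom (unadjusted p = 0.00779). Others were, in edgeR, *Lyn* with the replicate block (0.0411) and *Bax* with library size alone (0.0408). With a mouse left out, edgeR also gave unadjusted p values under 0.05 to further role genes. Among these were *Syk* (0.00377) and *Mef2c* (0.0168) without CTL replicate 1, and *Spib* (0.0327) without CTL replicate 2. None of these had an adjusted p under 0.05. The unadjusted p of *Pou2af1* was above 0.05 with library size alone (0.0582), with thinned libraries (0.0522), in voom (0.124), with the replicate block (0.0652) and without each mouse in turn but CTL replicate 1, up to 0.171 without CTL replicate 3, where the log2 fold change was -0.36. *Cd83*, a surface protein of activated lymphocytes and dendritic cells, had the most counts per length over both groups (log2 fold change 0.21). In CTL mice alone *Klhl6* was above it (112 against 97.2 CPM per kb). *Spib*, an ETS factor of B cells, had the widest fold change upward, at 1.39 from 190, 0 and 55 reads in CTL and 349, 147 and 314 reads in *Prdm1*-CKO mice. *Eaf2*, a transcription elongation factor, had 25, 0 and 11 reads against 35, 28 and 36. *Spib* and *Eaf2* were thus at 0 in the same mouse as *Mef2b*, and each was higher in every *Prdm1*-CKO mouse than in any CTL mouse, or 2 of 14 genes, against 4.56% of all genes tested. The value of *Spib* was 0.80 without CTL replicate 2 and 2.20 without CTL replicate 1.

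The well counted genes were set against the mean log2 CPM of the B cell markers over the 6 mice. For *S1pr2* Pearson's r was -0.282 (exact permutation p = 0.586, adjusted p = 0.879) and Spearman's rho -0.086 (exact permutation p = 0.919). For *Neil1* r was -0.033 (exact permutation p = 0.951, adjusted p = 0.951) and rho 0.143 (exact permutation p = 0.803). For *Fas* r was 0.373 (exact permutation p = 0.465, adjusted p = 0.879) and rho 0.429 (exact permutation p = 0.419). These were the 3 relations computed, all two-sided, with Benjamini-Hochberg adjustment over them. Without CTL replicates 2 and 3, the mice farthest from the median of the markers, r was 0.947 for *S1pr2*, 0.397 for *Neil1* and -0.240 for *Fas* over 4 mice, so the values depend on those mice, and with 3 mice a group no value was computed within groups. In CTL replicate 2, with the lowest B cell markers, *S1pr2* (50.1 CPM), *Neil1* (27.1 CPM) and *Fas* (46.9 CPM) were within the range of the other mice.

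As a description, the genes most like each well counted gene in log2 CPM over the 6 mice were sought among 14319 others. For *S1pr2* these were *Eml2* (r = 0.990), *Ctu1* (r = 0.981) and *Bambi* (r = 0.978). For *Neil1* they were *Lrrc41* (r = 0.976), *Sgsm3* (r = 0.968) and *Gm5422* (r = 0.954), and for *Fas* they were *Cryzl1* (r = 0.978), *Ndufab1* (r = 0.976) and *Epb41l1* (r = 0.960). With 6 mice and this many candidates, values this high carry no test. No gene was named for more than 1 of the 3.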

How the data were processed

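RNA-seq libraries of sorted splenic Tfh cells from 3 CTL and 3 *Prdm1*-CKO mice were analysed, 1 per mouse. The authors made Smart-seq2 libraries, sequenced 25 bp from each end, used GRCm38 for alignment (STAR 2.4.2a is listed in the submitters' processing notes) and deposited raw counts per gene from featureCounts 1.4.6, without normalization. Strandedness and the handling of mates and of multiply aligned reads are not given in the sources used here. GENCODE M21 (GRCm38) gave symbols, places and exon lengths for 53274 of the 53379 identifiers. No pair of libraries was identical.

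Counts were tested with edgeR 4.0.16 in R 4.3.3 (TMM, filterByExpr, quasi-likelihood F test, no covariate), with Benjamini-Hochberg adjustment over the 14555 genes tested, and a prior count of 2 in log2 CPM. Standard errors were taken from the fold change and the F statistic. Alternatives were DESeq2 1.42.0, voom from limma 3.58.1, other scalings and filters, thinned libraries, the replicate number as a block, and each mouse left out. Halved counts were added after seeing the data. Steps were tested on simulated data with 200 genes changed 4-fold. The edgeR test recovered 118 of them (59%), all 118 in the right direction, and made 12 false calls, so it can miss changes of that size. With 3 mice a group, exact permutation cannot reach p under 0.1, so none is given between groups. The members and gene lists were chosen with earlier results of these data known. Named genes are the 7 members and, in each list of genes by role, every gene with an unadjusted p under 0.05, the gene with the most counts per length and the widest fold change in each direction. *Neil2*, *Eaf2*, *Bax*, *Fasl*, *Gna13*, *Arhgef1*, the family members shown for their levels and the cell type markers were added after their values were seen. 1 gene of the original list is not reported here.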

Additional observations from a re-analysis of the deposited data

How the results depend on the processing

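Every alternative run left the 4 tested genes, where they were tested, without an adjusted p under 0.05. Leaving out single mice, the log2 fold change ran from 0.03 to 1.11 for *Mef2b*, from -0.49 to 0.03 for *S1pr2*, from -0.21 to 0.02 for *Neil1* and from -0.04 to 0.08 for *Fas*. The direction turned for *S1pr2* without CTL replicate 3 (0.03), for *Neil1* without *Prdm1*-CKO replicate 2 (0.01) or 3 (0.02), and for *Fas* without CTL replicate 2 (-0.03), CTL replicate 3 (-0.01) or *Prdm1*-CKO replicate 1 (-0.04), and the causes were not tested. The value of *Mef2b* was 1.08 with the replicate block, 0.27 with thinned libraries, 1.11 without CTL replicate 3 and 0.03 without CTL replicate 2. At least 10 counts in every mouse left *Mef2b* out of the test. Voom turned *Fas* to -0.06 and *Bcl6* to -0.05, and thinned libraries turned *Bcl6* to -0.01. Voom also gave -0.05 for *S1pr2*, against -0.28 in the main fit. It moved other genes by over 1.5 times too, such as *Arhgef1* (0.39 to 0.74), *Mybl2* (0.22 to 0.60), *Ripk1* (-0.39 to -0.09) and *Xrcc1* (-0.17 to -0.04). The replicate block gave -0.25 for *S1pr2*, -0.07 for *Neil1* and 0.01 for *Fas*, and same-numbered mice shared only a number, with residual correlations of 0.158, 0.028 and 0.016. DESeq2 called 7 genes higher and 2 lower, and edgeR without a filter 1 higher, against 0 and 0, and each mouse left out gave 0 and 0. Genes at an unadjusted p under 0.05 numbered 342, against 936 without a filter and 681 in DESeq2, and from 174 to 1057 with each mouse left out. Halved counts, chosen after seeing the data, gave 311. Left out in turn, mice gave ranges that cross 0 for *Bcl6* (-0.20 to 0.26), *Hdac9* (-0.95 to 0.10), *Lin37* (-0.27 to 0.02), *Mybl2* (-0.05 to 0.52), *Ccr7* (-0.15 to 0.02), *Casp8* (-0.18 to 0.01), *Ripk1* (-0.62 to 0.16), *Fasl* (-0.20 to 0.15) and *Gna13* (-0.21 to 0.02). The correlation of *Neil1* with B cell markers turned to 0.165 with library size alone. Of the other genes of the role lists tested this way, these kept their sign but moved over 1.5 times with a mouse left out: *Mef2c* (0.02 to 0.93), *Spib* (0.80 to 2.20), *Syk* (0.26 to 0.90), *S1pr3* (0.40 to 7.76), *Cd83* (0.06 to 0.35), *Rgs16* (0.10 to 0.49), *Sphk2* (-0.28 to -0.06), *Xrcc1* (-0.27 to -0.07), *Fadd* (0.27 to 0.67), *Pou2af1* (-0.78 to -0.36), *Myb* (-0.65 to -0.28), *Rgs3* (-0.40 to -0.21), *Neil3* (0.24 to 0.50), *Eaf2* (0.52 to 1.57), *Bax* (0.28 to 0.63) and *Arhgef1* (0.10 to 0.59). Single mice were not left out for *Neil2* or for marker genes of other cell types. With this few reads and this spread between mice, no difference can be read for *Mybl1*, *Rgs13* and *Gcsam*.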
